A study of Mus musculus with 6 samples.

Results

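Cells that run short of oxygen take up more glucose and ferment it to lactate, and 10 genes of this response were examined in primary ovarian tumors of WT and *Tgm2* knockout mice. They were chosen by name for their roles and comprise the glucose transporter *Slc2a1*, the glycolytic enzymes *Hk2*, *Pfkp*, *Pgk1* and *Ldha*, the pyruvate dehydrogenase kinase *Pdk1*, the acid-handling enzyme *Car9*, the transcription factor subunit *Hif1a*, the mitophagy receptor *Bnip3* and the oxygen sensor *Egln3*. All 10 were found among the 20076 genes of the expression table, and all 10 passed the filter on low values (a normalized count of at least 1 in at least 3 tumors), as did 19667 genes of the table. They were picked for what they encode, not for a measured value, although earlier results of the data were known.

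The tumors grew from the mouse ovarian cancer line ID8 Trp53-/- Brca1-/-, in which both genes were knocked out by CRISPR-Cas9, after injection under the bursa of the ovary. The hosts were C57BL/6 WT mice in 1 group and *Tgm2* knockout mice, which lack transglutaminase 2 in the host, in the other; mice were 6 to 10 weeks old when used, and tumors were collected 6 weeks after injection. RNA of whole tumors was sequenced from 3 mice of each genotype, so every library mixes cancer cells with host cells, and the cancer cells carry *Tgm2* in both groups. The values are normalized counts, whose sums range from 33916288 to 35325875 among WT tumors and from 32316613 to 37717165 among knockout tumors. The steps between low values put a single read at 0.946 to 1.08 normalized counts. Wherever 3 values of a group are listed, they are those of tumors 1, 2 and 3 in that order, and the most abundant gene of a list is the one with the highest mean normalized count, with no correction for length.

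The response is built around hypoxia-inducible factors (HIFs). When oxygen is plentiful, prolyl hydroxylases such as the products of *Egln1* and *Egln3* mark the HIF alpha subunit, the von Hippel-Lindau protein recognizes the mark and the subunit is destroyed. When oxygen is low, the alpha subunit lasts, joins its partner ARNT and binds short DNA elements near genes for glucose uptake, glycolysis, lactate production, pH control, vessel growth and mitophagy. Since the factor itself is controlled mainly as a protein, the transcripts of its target genes are commonly read as a sign of its activity, and *Egln3* is both a brake on the pathway and one of its targets.

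HIFs bind a core written as A or G followed by CGTG. To show that core in the genes studied, both versions (ACGTG and GCGTG) were searched for on both strands in the 250 bases before the start of each gene in RefSeq (GRCm38.p6). Matches of the forward and reverse letters overlap where CACGTG is present, and each was counted. At least 1 of the 2 versions was found before the first listed start in 10 of the 10 genes, against 38.6% of 27025 genes with such a window. ACGTG was found in 8 of the 10, against 16.6% of genes, and GCGTG in 4 of the 10, against 28.2%; base composition was not matched. Stretches of 30 bases around the match closest to the start are shown for the 3 genes whose groups did not overlap (*Car9*, *Pdk1*, *Egln3*) and for a glucose transporter and 2 glycolytic enzyme genes whose groups did, 5′ to 3′ on the strand of the gene, with the matching letters in capitals.
Car9: cctatttccgatgCACGTacagcccgtcca
Pdk1: cccgcctacatggGCGTGtctttaaccagg
Egln3: atgtgcatctcagACGTGagatccaggttt
Slc2a1: agtcccgccccggACGTGctccccaggccc
Pgk1: caaatggaagtagCACGTctcactagtctc
Ldha: ACGTGggttcccgCACGTccgctgggctcc

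The *Car9* stretch lies on the plus strand at chr4:43506995-43507024, and its match begins 18 bases before the RefSeq start. For *Pdk1*, the plus-strand stretch is chr2:71873133-71873162, with the match 78 bases before the start. The *Egln3* match lies farthest away, 229 bases before the start, in chr12:54204087-54204116 on the minus strand. The stretches of *Slc2a1* (chr4:119108696-119108725), *Pgk1* (chrX:106186956-106186985) and *Ldha* (chr7:46845757-46845786) are all on the plus strand. Gene positions given below are from GENCODE, whose starts differ for some genes. By GENCODE, *Car9* begins at 43506966 and *Ldha* at 46841475, so their stretches lie inside the gene bounds. The *Slc2a1* stretch spans the GENCODE start at 119108711. *Ldha* had the most matches, 5, together with *Bnip3*, whereas *Car9*, *Pdk1* and *Egln3* had 1 each. A match describes the sequence and was not tested as a binding site.

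Before the genes are compared, some libraries need a description, because they stood apart in transcripts of other tissues. WT tumor 3 held 52176 normalized counts of *Ltf*, a secreted iron-binding protein of neutrophils and of the reproductive tract lining, against at most 3968 in the other 5 tumors. A list of 15 female reproductive tract epithelium markers, written after the data had been seen, summed to 140003 there. It also summed to 56717 and 71568 in knockout tumors 1 and 2 and to 19174 in WT tumor 2. The sums were 5216 in WT tumor 1 and 3154 in knockout tumor 3. The same tumor had the lowest sum of 16 proliferation markers, 21344, against 40464 to 60067 elsewhere. WT tumor 2 held 26293 of the beta globin transcript *Hbb-bs*, against at most 6254 in the others. *Tgm2* knockout tumor 1 and WT tumor 1 held the most ovarian granulosa and steroid transcripts, with list sums of 77858 and 28343 against at most 18917. *Ovgp1*, a glycoprotein of the oviduct, reached 37108 and 55944 in knockout tumors 1 and 2 and at most 9244 in the rest.

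White adipocyte markers had higher means in knockout tumors. Of 25 markers, 25 had a log2 fold change above 0, 15 did not overlap between the groups, and 19 were higher at an unadjusted p under 0.05 and 1 past the adjusted limits used below, with a median log2 fold change of 1.43. The markers summed to 70011, 81762 and 56504 in WT and to 82127, 280614 and 180067 in knockout tumors. *Lpl*, lipoprotein lipase, was the most abundant of them (log2 fold change 0.48, SE 0.34, adjusted p = 0.895, limma), and the defining markers *Adipoq* and *Plin1* had at least 786 and 125 normalized counts in every tumor; *Cidea*, a marker shared with brown fat, was at 0 in WT tumor 1 and knockout tumor 3. In bulk RNA, fewer cells of a type and less RNA per cell cannot be told apart, and the part that tissue makeup has in the results below was not tested beyond the fit with an adipocyte covariate.

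**Figure D1:**
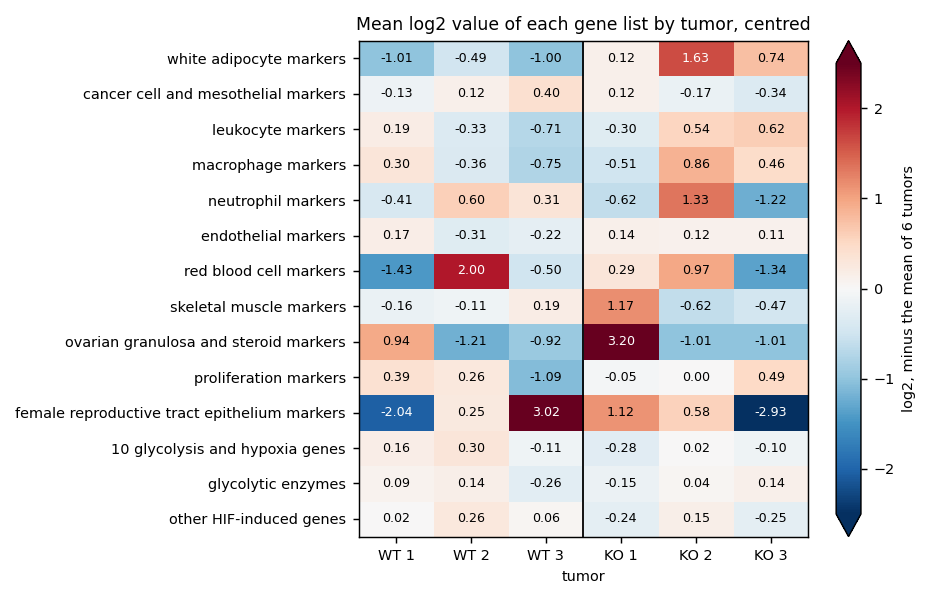
Mean log2(normalized count + 1) of each gene list in each tumor (columns, 3 WT and 3 *Tgm2* knockout), minus the mean over the 6 tumors, so that 1 unit is a 2-fold difference. The 10 glycolysis and hypoxia genes (12th row) stay between -0.28 and 0.30. The glycolytic enzymes (-0.26 to 0.14) and other HIF-induced genes (-0.25 to 0.26) are as narrow, while steroid, reproductive tract, red blood cell and adipocyte lists vary far more.

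*Tgm2* itself checks the labels. WT tumors held 14978, 12154 and 13180 normalized counts of it, and knockout tumors held 5853, 6071 and 8157. The groups did not overlap, with a log2 fold change of -1.02 (SE 0.22, adjusted p = 0.391, limma). The mean in knockout tumors was 0.498 of that in WT tumors, in a design where the cancer cells still have the gene.

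Across the 10 genes, *Pdk1*, *Car9* and *Egln3* had lower values in all 3 knockout tumors than in any WT tumor, and the other 7 overlapped between the groups. None of the 10 passed an adjusted p under 0.05 with an absolute log2 fold change over 1 (limma, Benjamini-Hochberg adjustment over all 19667 genes, lowest adjusted p = 0.759), a limit that 0.102% of all genes passed, each of them higher in knockout tumors. At an unadjusted p under 0.05, 3 of the 10 were lower, against 2.38% of all genes, and 0 were higher, against 3.4%. Groups that did not overlap, with knockout below WT, were seen for 3 of the 10 and for 5.33% of all genes; with knockout above WT they were seen for 0 of the 10 and for 5.18% of all genes. The median log2 fold change of the 10 was -0.18, beside -0.03 for all genes tested, and single genes ranged from -1.03 to 0.33. These counts describe a short list, and each of the 3 genes rests on 3 tumors against 3, for which the smallest exact permutation p is 0.1.

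**Figure D2:**
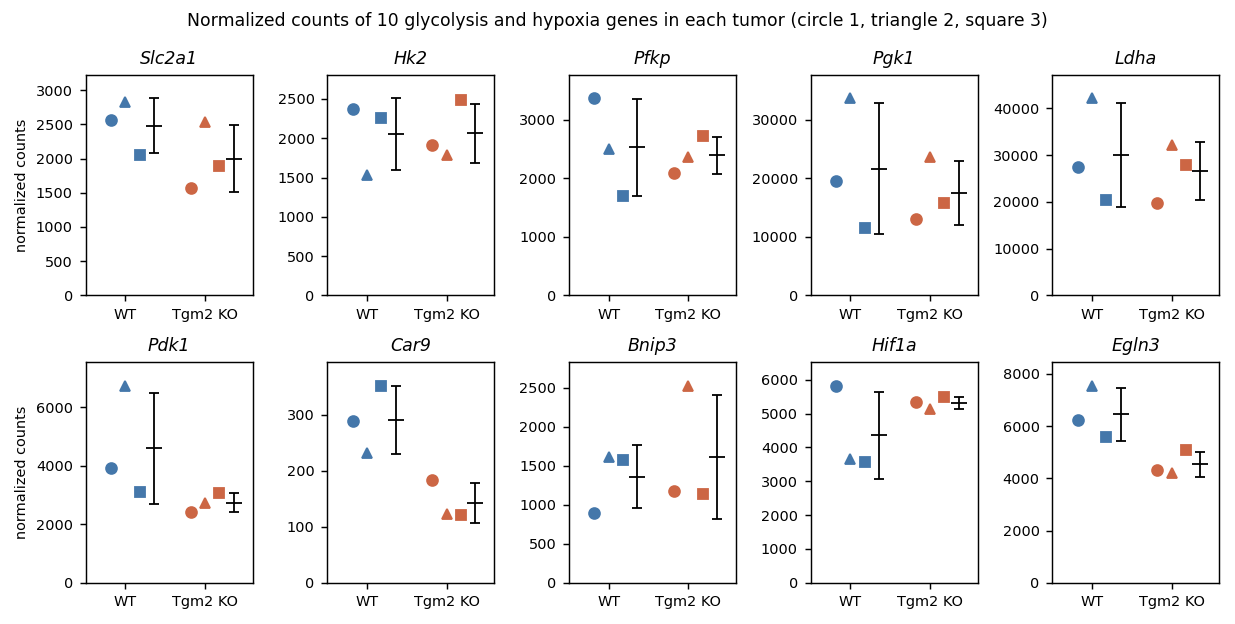
Normalized counts of each of the 10 genes in the 3 WT (blue) and 3 *Tgm2* knockout tumors (orange), with axes from 0; circles, triangles and squares are tumors 1, 2 and 3, and the black marks are the mean and SD of each group. *Pdk1*, *Car9* and *Egln3* show no overlap between the groups, and WT tumor 2 is the highest tumor for 5 of the 10 genes.

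The levels of the genes spanned 2 orders of magnitude. Per kilobase of the longest coding transcript, *Ldha* (16541 normalized counts per kilobase in WT, mean of 3) and *Pgk1* (11842) were the most abundant, followed by *Egln3* (2426), *Hif1a* (922), *Pdk1* (887), *Bnip3* (776), *Slc2a1* (761), *Pfkp* (610), *Hk2* (373) and *Car9* (144). Ranges over the 3 WT tumors overlapped between *Ldha* and *Pgk1* and between neighbors from *Hif1a* down to *Hk2*, whereas *Egln3* and *Car9* were separate from their neighbors. In knockout tumors *Hif1a* (1126) and *Bnip3* (920) stood above *Slc2a1* (612), *Pfkp* (577) and *Pdk1* (530) in the means. Within each tumor the genes did not move as 1 block: WT tumor 2 was highest for 5 genes, WT tumor 1 for 2, and knockout tumor 1 for 0 while being lowest for 3.

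Glucose enters the cell through facilitative transporters, of which *Slc2a1* encodes the widely expressed GLUT1. *Slc2a1* (chromosome 4, 119108711 to 119137983, plus strand) had 2567, 2832 and 2048 normalized counts in WT and 1570, 2527 and 1892 in knockout tumors. Knockout tumor 1 was the lowest and WT tumor 2 the highest, and knockout tumor 2 lay inside the WT range. The log2 fold change was -0.33 (95% interval -0.87 to 0.21, adjusted p = 0.895). *Slc2a3*, the high-affinity GLUT3, had 719, 940 and 1136 in WT and 1233, 1550 and 1034 in knockout tumors, and *Slc2a4*, the insulin-responsive GLUT4 of fat and muscle, had 202, 199 and 243 in WT and 233, 421 and 278 in knockout tumors. Among 12 genes of the glucose transporter families, not all of which carry mainly glucose, 1 was higher at an unadjusted p under 0.05 and 0 were lower. That gene was *Slc2a13*, a proton-coupled inositol transporter of the *Slc2a* family. It had 91.8, 53.1 and 51.5 in WT and 108, 136 and 230 in knockout tumors (log2 fold change 1.24, SE 0.48, adjusted p = 0.819, limma).

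Hexokinases trap glucose by phosphorylating it, and *Hk2* is the isoform that tumors and hypoxic cells commonly induce. Its values, 2375, 1533 and 2254 in WT and 1910, 1791 and 2490 in knockout tumors, interleaved completely. The difference was 0.02 on the log2 scale (95% interval -0.53 to 0.56). *Hk1*, the housekeeping isoform, had a higher mean level in WT per kilobase of the longest coding transcript (970 against 373 for *Hk2*), with normalized counts of 5477, 3600 and 3376 in WT and 4892, 4469 and 7568 in knockout tumors. *Hk3*, an isoform best known from myeloid cells, was the exception in this family, with 281, 159 and 153 in WT against 293, 497 and 561 in knockout tumors. Its groups did not overlap (log2 fold change 1.19, SE 0.38, unadjusted p = 0.0142, adjusted p = 0.727). Macrophage markers were also higher on average, with 11 of 12 above 0, 2 of them at an unadjusted p under 0.05, and a median log2 fold change of 0.45; *Lyz2*, the most abundant, had 29726, 25556 and 18857 in WT and 13429, 52341 and 32517 in knockout tumors. The macrophage markers summed to 91515, 67898 and 45334 in WT and to 44940, 139499 and 99775 in knockout tumors. Their part in the *Hk3* values was not tested.

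Phosphofructokinase commits sugar to glycolysis. *Pfkp*, the platelet-type subunit, had 3370, 2509 and 1705 in WT and 2086, 2373 and 2717 in knockout tumors. The knockout values all lay inside the WT range, which was set by WT tumors 1 and 3 (log2 fold change -0.03, 95% interval -0.64 to 0.58). Of its sister subunits, *Pfkl* had the highest level per kilobase (1745 in WT, against 652 for *Pfkm* and 610 for *Pfkp*), with normalized counts of 7619, 6705 and 5205 in WT and 5536, 7090 and 7715 in knockout tumors. *Pfkm*, the muscle type, had 2007, 1847 and 1778 in WT and 2504, 2053 and 3217 in knockout tumors, with no overlap and an adjusted p of 0.881 (limma). The enzymes that make and remove the allosteric activator fructose 2,6-bisphosphate gave 0 of 5 genes under an unadjusted p of 0.05; the most abundant were *Pfkfb3* (log2 fold change 0.15) and *Tigar* (0.08).

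In the payoff steps of glycolysis, *Pgk1* makes ATP directly from 1,3-bisphosphoglycerate. Its values varied widely, at 19598, 33672 and 11567 in WT and 13095, 23685 and 15803 in knockout tumors, a 2.91-fold range. WT tumor 2 was the highest and WT tumor 3 the lowest of all 6, so the WT group spanned the knockout group. The log2 fold change was -0.21 (SE 0.41, 95% interval -1.16 to 0.73), and the interval leaves room for a difference of 2-fold in the lower direction. The annotation names 3 near-copies of *Pgk1*, of which 2 are in the table with at most 82.1 normalized counts, and how kallisto split reads among the copies was not tested. *Gapdh* and *Aldoa*, the most abundant glycolytic enzymes, had log2 fold changes of 0.13 and -0.07. *Gapdh* was likewise highest in WT tumor 2 and lowest in WT tumor 3, with 44999, 51181 and 23750 in WT and 34719, 43588 and 47394 in knockout tumors.

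Of 22 glycolytic enzymes tested, 11 had a log2 fold change above 0 and 11 below, with a median of 0.01. *Hk3* was the only one higher at an unadjusted p under 0.05 and *Eno2* the only one lower. *Eno2* encodes the neuronal form of enolase, which is also a HIF target. It had 191, 224 and 474 normalized counts in WT and 127, 75.6 and 43.3 in knockout tumors. Every knockout tumor was below every WT tumor (log2 fold change -1.85, SE 0.54, unadjusted p = 0.00802, adjusted p = 0.649). Per kilobase, its level in WT was 106, against 14627 for the main enolase *Eno1*, which had 18530 to 35388 normalized counts in WT and 21342 to 31129 in knockout tumors.

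**Figure D3:**
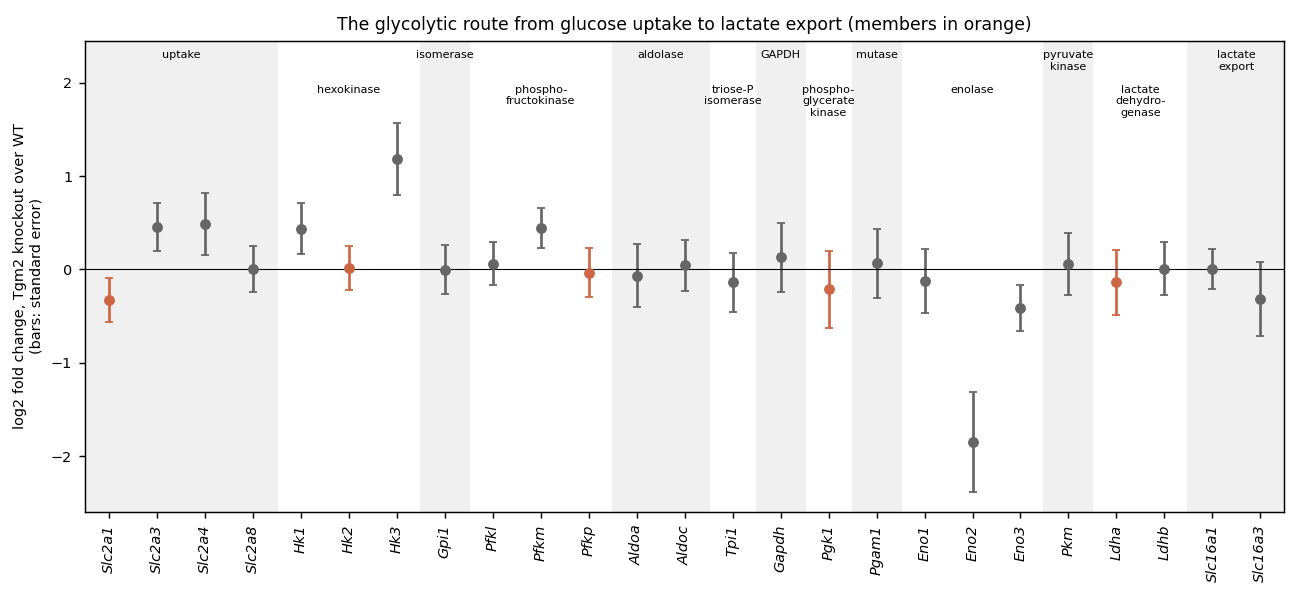
Log2 fold change (*Tgm2* knockout over WT, points) with its standard error (bars) for genes in the order of glucose uptake, glycolysis, lactate production and export, each from 3 against 3 tumors; the 5 orange genes belong to the 10 examined. Most steps lie within 0.5 of 0, with *Hk3* at 1.19 and *Eno2* at -1.85 as the exceptions.

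Lactate dehydrogenase turns pyruvate into lactate and restores the NAD+ that glycolysis needs. *Ldha*, its hypoxia-induced subunit, had the highest level per kilobase of the 10 genes, with normalized counts of 27496, 42158 and 20409 in WT and 19794, 32143 and 27878 in knockout tumors. As for *Pgk1*, WT tumor 2 was the highest. Knockout tumor 1 was the lowest, just below WT tumor 3, and knockout tumors 2 and 3 lay inside the WT range (log2 fold change -0.14, 95% interval -0.94 to 0.66). *Ldhb*, the subunit that favors the reverse reaction, had 13446, 21673 and 12985 in WT and 12560, 18098 and 16975 in knockout tumors. The ratio of *Ldha* to *Ldhb* inside a tumor, which does not depend on scaling between tumors, was 2.04, 1.95 and 1.57 in WT and 1.58, 1.78 and 1.64 in knockout tumors, overlapping between the groups. None of 8 genes for lactate production and transport had an unadjusted p under 0.05. The median was -0.14, and *Bsg*, the chaperone of the lactate exporters, stood at -0.31.

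Pyruvate dehydrogenase kinases inhibit pyruvate dehydrogenase in the mitochondrial matrix and so block the conversion of pyruvate to acetyl-CoA, and *Pdk1* is the HIF-induced member. *Pdk1* (chromosome 2, 71873224 to 71903858, plus strand) had 3937, 6752 and 3110 normalized counts in WT and 2437, 2737 and 3065 in knockout tumors. The groups did not overlap, but WT tumor 3 and knockout tumor 3 differed by little, and WT tumor 2 carried much of the WT mean. The mean was 4600 ± 1909 in WT and 2746 ± 314 in knockout tumors (SD, n = 3), a log2 fold change of -0.67 (SE 0.29). The adjusted p was 0.858 and the unadjusted p 0.0472 (limma); the two-sided exact permutation p was 0.1. The unadjusted p stayed under 0.05 without WT tumor 3 and not without any other single tumor. Without WT tumor 2 the log2 fold change of *Pdk1* was -0.36.

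The other kinases of this family did not share the direction. *Pdk2* had 730, 777 and 1078 in WT and 1147, 1069 and 1189 in knockout tumors (log2 fold change 0.42). *Pdk4*, a kinase induced in fasting and abundant in fat and muscle, had 881, 462 and 408 in WT and 674, 886 and 917 in knockout tumors (0.57). Neither passed an unadjusted p of 0.05. As a ratio of normalized counts within each tumor, *Pdk1* was 5.39, 8.69 and 2.88 times *Pdk2* in WT and 2.12, 2.56 and 2.58 times in knockout tumors. The ratio of *Pdk1* to *Pdk4* was 4.47, 14.6 and 7.62 in WT and 3.62, 3.09 and 3.34 in knockout tumors. Both ratios were lower in every knockout tumor (differences of -1.09 and -1.24 in mean log2 ratio). Of 14 genes of pyruvate dehydrogenase control, *Pdk1* was the only one under an unadjusted p of 0.05, 10 had log2 fold changes above 0, and the catalytic subunit gene *Pdha1* stood at 0.08.

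In all, 13 ratios of 1 of the 10 genes to a related gene were compared between the groups. They were lower in every knockout tumor for 5, namely *Slc2a1* to *Slc2a4*, *Hk2* to *Hk1*, *Hk2* to *Hk3*, *Pdk1* to *Pdk4* and *Pdk1* to *Pdk2*, and 0 were higher in every knockout tumor. Single genes lay below WT without overlap in 5.33% of all genes and above it in 5.18%. Such a share was not computed for ratios of other gene pairs. The ratios are not independent, since *Hk2* and *Pdk1* recur. *Hk2* had a log2 fold change of 0.02, beside 0.44 for *Hk1* and 1.19 for *Hk3*. Each of the 5 reached the smallest p the design allows (two-sided exact permutation test, p = 0.1, adjusted over 13 ratios p = 0.26). *Slc2a1* was 12.7, 14.2 and 8.41 times *Slc2a4* in WT and 6.74, 6.01 and 6.81 times in knockout tumors, a difference of -0.82 in mean log2 ratio. *Hk2* was 8.44, 9.61 and 14.7 times *Hk3* in WT and 6.53, 3.60 and 4.44 times in knockout tumors (-1.17). *Hk2* to *Hk1* differed by -0.42. *Slc2a4* and *Pdk4* are abundant in fat and *Hk3* in myeloid cells, and the part of these cell types in the ratios was not tested.

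**Figure D4:**
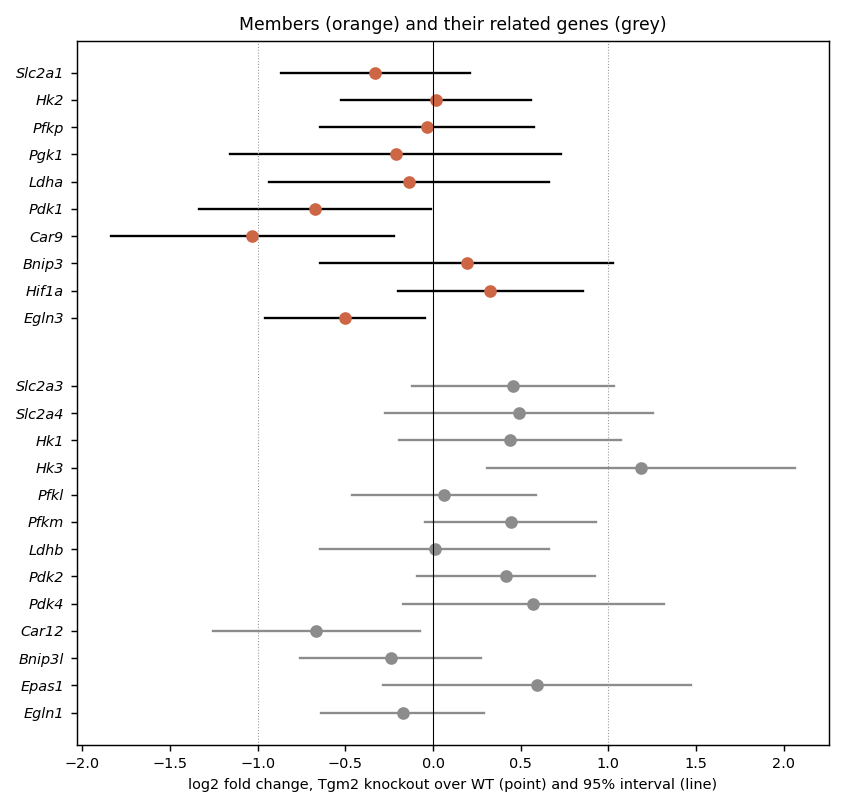
Log2 fold change (*Tgm2* knockout over WT, points) with its 95% interval (lines) from limma for the 10 genes (orange points, black lines) and for 13 related genes (grey); dotted lines mark a 2-fold change. The intervals of *Pdk1*, *Car9* and *Egln3* lie below 0, and those of the other 7 genes include 0.

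Glycolytic cells must export acid, and carbonic anhydrase 9, a cell surface enzyme with little expression in most normal tissue, is among the most hypoxia-specific of the HIF targets. *Car9* (chromosome 4, 43506966 to 43513729, plus strand) had 289, 231 and 353 normalized counts in WT and 184, 123 and 120 in knockout tumors. All knockout tumors were below all WT tumors, and the gap between the highest knockout and the lowest WT value was small beside the distance of the means. The mean was 291 ± 60.6 in WT and 143 ± 36.1 in knockout tumors (SD, n = 3), with a log2 fold change of -1.03 (SE 0.35, 95% interval -1.84 to -0.22, adjusted p = 0.759, unadjusted p = 0.0183, limma). Ranked by p, it was number 475 of the 19667 genes. *Car9* had the lowest level per kilobase of the 10 genes, and its log2 fold change was the farthest from 0. The unadjusted p stayed under 0.05 without WT tumor 1, WT tumor 2 or knockout tumor 1, and not without any of the other 3.

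*Car12*, a related surface carbonic anhydrase that is also induced by HIFs, had a higher level per kilobase in WT (1419, against 144 for *Car9*), with normalized counts of 5545, 3839 and 6440 in WT and 2590, 4018 and 3298 in knockout tumors. Knockout tumor 2 lay above WT tumor 2, so the groups overlapped (log2 fold change -0.67, SE 0.26, unadjusted p = 0.0316, adjusted p = 0.819). The ratio of *Car9* to *Car12* overlapped between the groups. Among 8 pH genes, *Car9* and *Car12* were lower at an unadjusted p under 0.05 and 0 were higher.

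The factors themselves gave no difference that passed. *Hif1a* (chromosome 12, 73901375 to 73947530, plus strand) had 5828, 3654 and 3582 in WT and 5341, 5137 and 5482 in knockout tumors. WT tumors 2 and 3 lay below all knockout tumors and WT tumor 1 above them, with a log2 fold change of 0.33 (95% interval -0.20 to 0.85, adjusted p = 0.894). Without WT tumor 1 the log2 fold change was 0.56 at an unadjusted p under 0.05, and its adjusted p was 0.632. *Epas1*, which encodes HIF2 alpha and is prominent in endothelium and macrophages, had 5493, 2322 and 4269 in WT and 6483, 3618 and 7955 in knockout tumors (0.59, SE 0.38). *Arnt*, the shared partner, varied between 1968 and 2399 over all 6 tumors.

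Among oxygen sensors, *Egln3* (chromosome 12, 54178981 to 54203860, minus strand) had 6249, 7556 and 5570 in WT and 4326, 4191 and 5093 in knockout tumors. The groups did not overlap, and the 3 knockout values lay close together. The mean was 6458 ± 1010 in WT and 4537 ± 487 in knockout tumors (SD, n = 3), a log2 fold change of -0.50 (SE 0.20, adjusted p = 0.819, unadjusted p = 0.0349, limma). The unadjusted p stayed under 0.05 only without WT tumor 3 or knockout tumor 3 among the 6 fits that left out 1 tumor. *Egln1*, the main sensor in most cells, had 3712, 4349 and 5393 in WT and 3597, 4024 and 4192 in knockout tumors, with a log2 fold change of -0.17. The ratio of *Egln3* to *Egln1* overlapped between the groups, at 1.68, 1.74 and 1.03 in WT and 1.20, 1.04 and 1.22 in knockout tumors. *Egln3* was the only one of 13 HIF factors and sensors under an unadjusted p of 0.05. *Elob*, a partner of the von Hippel-Lindau protein and the most abundant of the 13, stood at -0.10.

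*Bnip3* sits on the outer mitochondrial membrane and recruits the autophagy machinery in hypoxia. It had 896, 1608 and 1582 in WT and 1173, 2531 and 1143 in knockout tumors. Knockout tumor 2 was the highest and WT tumor 1 the lowest, and knockout tumors 1 and 3 lay below WT tumors 2 and 3 (log2 fold change 0.19, 95% interval -0.65 to 1.03). *Bnip3l*, its relative, had a higher level per kilobase in WT (2121, against 776) and a log2 fold change of -0.24. None of 8 mitophagy receptors had an unadjusted p under 0.05, among them the abundant *Fkbp8* (-0.17) and *Phb2* (-0.25).

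A list of 37 other genes induced by HIFs put the 10 genes beside the wider response. Of these 37, 24 had log2 fold changes below 0 and 13 above, with a median of -0.21, and none passed the adjusted limits. At an unadjusted p under 0.05, 5 were lower and 1 was higher. The 2 lower genes past an absolute log2 fold change of 1 were *Eno2*, described above, and *Vegfa*, the main vessel growth factor. *Vegfa* had 5980, 7074 and 15173 in WT and 4599, 3131 and 2701 in knockout tumors, with no overlap. Its log2 fold change was -1.35 (SE 0.37, unadjusted p = 0.00585, adjusted p = 0.644), and without WT tumor 3, which carried the highest value, it was -0.94. Of 12 endothelial markers, 8 were above 0, 1 of them at an unadjusted p under 0.05, and *Pecam1* had 2729, 2379 and 1830 in WT and 2689, 3239 and 3640 in knockout tumors.

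The other 4 genes of that list under an unadjusted p of 0.05 are named after their values were seen. Lower were *Car12*, already given, *Kdm3a*, a histone demethylase, and *Tfrc*, the transferrin receptor. *Kdm3a* had 2088, 2465 and 5789 in WT and 2182, 1292 and 1545 in knockout tumors, an overlap, with WT tumor 3 far above the rest. *Tfrc* had 2602, 4945 and 4547 in WT and 2382, 2714 and 2260 in knockout tumors and also overlapped. Higher was *Cited2*, a HIF target that competes with HIF alpha subunits for the coactivators CBP and p300. *Cited2* had 1652, 1553 and 1225 in WT and 2992, 2442 and 2490 in knockout tumors, with no overlap and a log2 fold change of 0.84 (SE 0.20, unadjusted p = 0.00261, adjusted p = 0.516, limma). The most abundant genes of the list, *Trf* and *Ndrg1*, had log2 fold changes of -0.20 and 0.22.

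**Figure D5:**
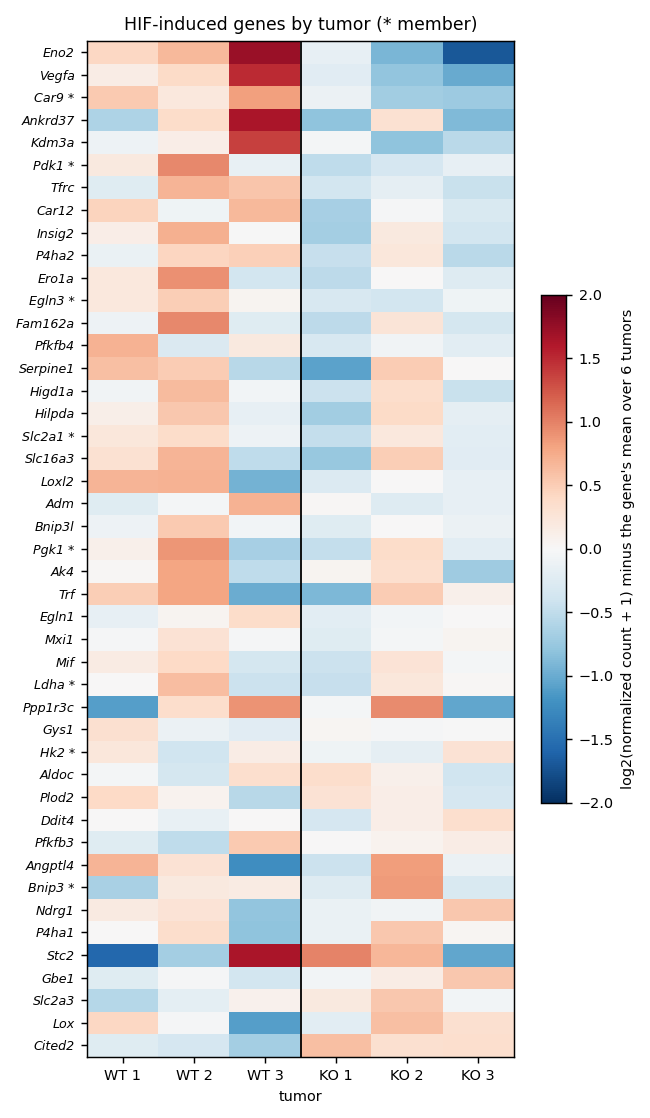
HIF-induced genes (rows, sorted by log2 fold change; asterisks mark those among the 10 genes) in each tumor (columns), as log2(normalized count + 1) minus the mean of the gene over the 6 tumors. *Vegfa*, *Eno2* and *Kdm3a* are highest in WT tumor 3, whereas *Pdk1*, *Egln3*, *Pgk1* and *Ldha* are highest in WT tumor 2, and *Cited2* at the bottom is higher in all 3 knockout tumors.

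The WT tumors with high values differed from gene to gene. *Vegfa*, *Eno2*, *Kdm3a* and *Car9* were highest in WT tumor 3, the tumor with the high *Ltf* and the low proliferation sum. *Pdk1*, *Egln3*, *Pgk1*, *Ldha* and *Slc2a1* were highest in WT tumor 2, the tumor with the most globin transcripts. *Hif1a* and *Pfkp* were highest in WT tumor 1. Leaving out WT tumor 3 kept *Pdk1* (-0.91) and *Egln3* (-0.60) under an unadjusted p of 0.05 and left *Car9* (-0.88) above it, and leaving out WT tumor 2 kept *Car9* alone of the 10. Without knockout tumor 2, 0 of the 10 were under 0.05, with log2 fold changes of -0.67 for *Pdk1*, -0.94 for *Car9* and -0.45 for *Egln3*. The direction of *Pdk1*, *Car9* and *Egln3* was the same in all of these fits.

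Gluconeogenesis runs part of the route backwards, and 2 of its 6 tested genes were higher at an unadjusted p under 0.05. *Pck1*, cytosolic phosphoenolpyruvate carboxykinase, which fat cells use to make glycerol, had 268, 309 and 207 in WT and 602, 2696 and 1266 in knockout tumors (log2 fold change 2.30, SE 0.49, adjusted p = 0.387). *Pcx*, pyruvate carboxylase, had 1646, 1991 and 1564 in WT and 2368, 4775 and 3079 in knockout tumors (0.92, SE 0.27, adjusted p = 0.663). Neither gene overlapped between the groups. Among knockout tumors, both genes and the adipocyte sum were highest in tumor 2, then 3, then 1. *Pck1* is part of that sum, and the part of fat cells in the values of either gene was not tested. *Pck2*, the mitochondrial form, was near equal (-0.04). With the mean of the adipocyte markers as a covariate, *Pck1*, itself one of those markers, went from 2.30 to 0.10.

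With that covariate, the picture of the 10 genes changed as well. *Slc2a1* became the only one under an unadjusted p of 0.05 (log2 fold change -1.11, adjusted p = 0.509), *Pgk1* stood at -1.53, *Ldha* at -1.14 and *Pdk1* at -1.21. *Car9* went from -1.03 to -0.33 and *Egln3* from -0.50 to -0.59, and with the covariate both were above an unadjusted p of 0.05. Of the other HIF-induced genes, *Vegfa* went from -1.35 to -0.70, *Eno2* from -1.85 to -1.10 and *Kdm3a* from -0.92 to -0.02. *Car12* went the other way, from -0.67 to -0.99. None of these 4 was under an unadjusted p of 0.05 any longer, while *Cited2* stood at 1.05 and stayed under it. *Hk3* went from 1.19 to 0.69, also above 0.05. Every knockout tumor had a higher mean log2 adipocyte level than every WT tumor, so genotype and adipocyte level cannot be told apart well in this design.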

How the data were processed

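Polyadenylated RNA of 6 tumors was sequenced. The authors quantified transcripts with kallisto 0.46.2 (per the submitters' processing notes, genome build GRCm38), mapped them to genes by biomaRt, filtered out weakly expressed genes and divided by DESeq2 size factors; the Ensembl release and the limit for low expression are not given in the sources used here. The deposited table is named TPM, but its unit is a signal, namely estimated counts divided by size factors, since columns sum to 32316613 or more. Log-scale tests were used and count models were not, because only 41.2% to 48.5% of the low values of genes with several transcripts came out as whole reads (within 0.1 read). Values entered the fit as log2(value + 1), a scale that shrinks fold changes of low genes. Genes with at least 1 in at least 3 tumors (19667) were fitted with limma 3.58.1 in R 4.3.3, with a trend of variance on mean, no covariate, two-sided tests and Benjamini-Hochberg adjustment over all of them; the model was tested on simulated data. Ratios were compared with exact permutation tests over the 20 assignments (Python 3.11.15). Positions and transcript lengths come from GENCODE M21 (GRCm38), with 94.8% of gene names matched, and sequences from RefSeq (GRCm38.p6). Whether strand was used in quantification is not given, so antisense transcripts cannot be told apart.

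The 10 genes and all lists were chosen with earlier results of these data known. The genes named are *Tgm2*, the 10 genes, their partners in the ratios, genes of the pathway lists with an unadjusted p under 0.05 and an absolute log2 fold change over 1, the 2 most abundant genes of each pathway list, the most abundant gene of each marker list and the 5 genes with the most similar profile; genes outside this rule were added once their values had been seen. The single-gene value of 1 gene under the rule is left out here. Alternatives changed the pseudocount, filter, scaling, variance trend, tumor weights and thresholds, added the replicate number or an adipocyte covariate, and left out tumors in turn.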

Additional observations from a re-analysis of the deposited data

How the results depend on the processing

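The count of 0 of 10 genes past the adjusted limits was the same under every alternative fitted; at an unadjusted p alone it was 3. *Slc2a1*, *Pdk1*, *Car9*, *Hif1a* and *Egln3* kept their direction in all 18 alternatives, *Car9* from -1.23 to -0.33, *Pdk1* from -1.21 to -0.36 and *Egln3* from -0.60 to -0.38. The 3 lower genes became 2 with a pseudocount of 0.1, 1 with no variance trend, 1 with the adipocyte covariate (a different gene) and 1 without replicate 1 of both groups, an alternative chosen after seeing the data; leaving out single tumors gave 0 to 2, and 0 to 1 higher. The median log2 fold change of the 10 was -0.85 with the adipocyte covariate and between -0.42 and 0.018 with single tumors left out, above 0 only without knockout tumor 1. Ratios without overlap numbered 5 to 10 when tumors were left out, 10 without WT tumor 3. Leaving out a tumor can only keep or raise this count, so it does not test the 5 ratios. Over all genes, 20 calls became 4 with no variance trend, 5 with the replicate block, 1 with the adipocyte covariate, 2 to 14 with single tumors left out, and 1137 at an unadjusted p alone.

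Signs turned for genes near 0: *Hk2* to -0.0045 with equal column sums, *Bnip3* to -1.11 with the adipocyte covariate, *Pfkp* to 0.30 and *Ldha* to 0.029 without replicate 1 of both groups, and, with single tumors left out, *Hk2* (-0.18 to 0.14), *Pfkp* (-0.29 to 0.20), *Ldha* (-0.38 to 0.14), *Bnip3* (-0.18 to 0.39) and *Pgk1* (-0.60 to 0.17). The causes were not tested. The replicate numbers did not pair the tumors (correlations of deviations -0.196, 0.284 and -0.307); with the number as a block, 2 of the 10 were lower, *Car9* (p = 0.032) and *Egln3* (p = 0.0495), and *Pdk1* had p = 0.0546. Depth limits only the low values, since 1 read is worth about 1 normalized count.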

Other observations

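Cell type lists not described above gave these values. Of 10 leukocyte markers, 9 had log2 fold changes above 0 (median 0.53, 1 at an unadjusted p under 0.05), with *Laptm5* the most abundant at 0.54. Of 12 cancer cell and mesothelial markers, 8 were below 0 (median -0.39, 1 lower at an unadjusted p under 0.05), and *Wt1*, the most abundant, stood at 0.11. Of 11 neutrophil markers, 9 were below 0 (median -0.36), with 0 lower and 1 higher at an unadjusted p under 0.05 (*Csf3r*, a cytokine receptor named after its values were seen, 0.90). Red blood cell markers had a median of -0.56 over 8 genes, with 1 higher and 0 lower at an unadjusted p under 0.05. Skeletal muscle markers had a median of -0.02 over 11 genes. *Eno3*, a muscle enolase and the most abundant of these, had 467, 588 and 441 in WT and 383, 364 and 369 in knockout tumors, without overlap. Of 11 ovarian granulosa and steroid markers, 10 were above 0 (median 0.83, 0 at an unadjusted p under 0.05), with *Star* the most abundant at -0.01. Of 16 proliferation markers, 14 were above 0 (median 0.30, 0 at an unadjusted p under 0.05), and *Pcna* stood at 0.00. Reproductive tract epithelium markers had a median of -0.73 over 15 genes, 1 of them lower at an unadjusted p under 0.05.

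The 5 genes outside the lists whose log2 values followed the mean profile of the 10 glycolysis and hypoxia genes most closely over the 6 tumors, among 14327 with at least 10 normalized counts in every tumor, were *Gm9118* (Pearson r 0.991), *Snx7* (0.989), *Dda1* (0.988), *Twist2* (0.988) and *Tmem273* (0.986). They were selected for this likeness from many candidates over few tumors that share their scaling. *Snx7*, a sorting nexin, had 2246, 2718 and 1614 in WT and 1307, 1927 and 1789 in knockout tumors. *Twist2*, a transcription factor of mesenchymal cells, had 185, 229 and 134 in WT and 90.0, 143 and 117 in knockout tumors. The log2 fold changes were -0.53 for *Gm9118*, -0.38 for *Snx7*, -0.24 for *Dda1*, -0.63 for *Twist2* and -0.42 for *Tmem273*, and none passed adjustment.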
